A study of Mus musculus with 46 samples.

Results

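The 10 genes described here encode enzymes that build triglyceride or supply its glycerol backbone: Gpd1, Gyk, Pck1, Gpam, Agpat2, Lpin1, Mogat1, Mogat2, Dgat1 and Dgat2. They were chosen by name for their role in the pathway, with earlier results of these data known. All 10 were found among the 24338 gene symbols of the expression table. Shares over all genes, given below beside counts of the 10, are therefore a description and not a test. RNA was measured in visceral adipose tissue of mice in 4 groups of 5 libraries each. The CORT group at 5 weeks had received corticosterone, the main glucocorticoid of rodents, and stands for active Cushing's syndrome, the disease of glucocorticoid excess. The CORT group at 15 weeks stands for mice that had recovered from it, and each CORT group has a vehicle group (VEH) of the same week. The labels used here give no strain, genotype, age, dose or schedule of treatment, so whether the mice at 15 weeks were still exposed is not stated. They also do not say that each library came from a separate animal, and the p-values measure the spread between these libraries, which may in part be technical.

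Triglyceride is made by adding fatty acyl chains one after another to glycerol 3-phosphate, with removal of the phosphate before the last chain is attached. Adipocytes make the backbone by reducing dihydroxyacetone phosphate that comes from glucose, or from smaller precursors by glyceroneogenesis. A side route starts from monoacylglycerol and joins the main route at diacylglycerol, and the last step is shared by a pair of unrelated DGAT enzymes. Glucocorticoids are known to redistribute body fat, and several genes of this pathway are known to respond to them in liver or fat.

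The gene values are FPKM (fragments per kilobase, scaled between libraries and by gene length), so levels can be compared between genes as well as between libraries. Reads counted in genes, recovered from the steps of the FPKM values, were 25.14 to 42.63 M per library, with a median of 30.11 M. The tissue label was borne out by 8 adipocyte markers, whose summed level was 14460 to 28740 FPKM, Adipoq alone being at 1641 to 4016 FPKM. Several libraries also held transcripts of neighbouring organs. Replicate 2 of CORT at 5 weeks stood at 3430 FPKM over 11 liver markers, while the rest of its group lay at 38.2 to 80.2 FPKM. Testis markers reached 559 to 2941 FPKM in 4 libraries (CORT at 5 weeks replicate 3, CORT at 15 weeks replicates 1 and 5, VEH at 15 weeks replicate 5). Epididymis markers reached 649.6 to 1430 FPKM in 3 libraries (CORT at 5 weeks replicate 4, VEH at 5 weeks replicate 3, VEH at 15 weeks replicate 5). Those sums were mostly Crisp1, at 1430, 649.2 and 1261 FPKM in the same order. The listed markers Lcn5, Lcn8 and Ros1 were no higher than 0.422, 0.0892 and 0.138 FPKM in any library. Results are given below with and without these 7 libraries where leaving them out changes a call. The fits without them have smaller groups: CORT keeps only replicates 1 and 5 at 5 weeks, and 2, 3 and 4 at 15 weeks.

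The promoter stretches of 4 of the genes that changed at 5 weeks are shown to place them in their sequence context. Each is the 250 bases before the start of transcription, 5' to 3' on the strand of the gene. Agpat2 rose and Gpam, Lpin1 and Pck1 fell in CORT at 5 weeks. The sequences are from RefSeq on GRCm38.p6, and 6 of the 10 genes were matched in the table of promoter stretches used here. Gpam has 2 starts in it, while Dgat1, Dgat2, Gpd1 and Mogat2 have no entry and were not searched. Capitals mark matches, on either strand, to any of 6 short motifs searched by their letters: the TATA box as TATAAA, the CCAAT box as CCAAT, the E box as CACGTG, the cAMP response half-site as TGACGT, the glucocorticoid response half-site as AGAACA and the nuclear receptor half-site as AGGTCA.
Agpat2, chr2:26604418-26604667, minus strand: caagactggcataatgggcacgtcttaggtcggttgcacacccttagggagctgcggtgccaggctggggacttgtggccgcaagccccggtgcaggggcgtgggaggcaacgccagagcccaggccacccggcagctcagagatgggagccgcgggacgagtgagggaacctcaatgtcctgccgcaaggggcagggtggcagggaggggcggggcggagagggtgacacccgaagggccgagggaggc
Gpam start 1, chr19:55127239-55127488, minus strand: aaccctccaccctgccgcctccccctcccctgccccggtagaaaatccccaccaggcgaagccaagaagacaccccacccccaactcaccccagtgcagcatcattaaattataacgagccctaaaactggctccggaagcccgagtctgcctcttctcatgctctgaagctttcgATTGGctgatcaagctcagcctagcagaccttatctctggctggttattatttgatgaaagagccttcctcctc
Gpam start 2, chr19:55099478-55099727, minus strand: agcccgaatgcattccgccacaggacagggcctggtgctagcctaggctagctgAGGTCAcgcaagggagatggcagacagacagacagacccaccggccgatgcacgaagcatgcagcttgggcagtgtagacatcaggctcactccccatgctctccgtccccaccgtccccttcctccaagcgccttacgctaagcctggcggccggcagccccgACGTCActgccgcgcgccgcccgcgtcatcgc
Lpin1, chr12:16610967-16611216, minus strand: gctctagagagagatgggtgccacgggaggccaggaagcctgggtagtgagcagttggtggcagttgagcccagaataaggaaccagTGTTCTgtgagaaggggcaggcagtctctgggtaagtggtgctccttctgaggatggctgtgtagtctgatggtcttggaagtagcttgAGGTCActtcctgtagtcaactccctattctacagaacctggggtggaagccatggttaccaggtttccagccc
Pck1, chr2:173152823-173153072, plus strand: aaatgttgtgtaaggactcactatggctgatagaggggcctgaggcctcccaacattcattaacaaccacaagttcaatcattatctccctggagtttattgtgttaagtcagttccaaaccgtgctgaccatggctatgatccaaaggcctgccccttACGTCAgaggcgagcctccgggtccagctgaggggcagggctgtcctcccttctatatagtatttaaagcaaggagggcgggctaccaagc
The Agpat2 stretch held none of the 6 motifs. The Gpam stretches held a CCAAT box 74 bases before start 1, and a cAMP half-site 32 bases and a nuclear receptor half-site 196 bases before start 2. Lpin1 held a glucocorticoid half-site 163 bases and a nuclear receptor half-site 74 bases before its start. Pck1, long studied as a cAMP-induced gene, held a cAMP half-site 91 bases before its start. Among the members not printed, Gyk held an E box at 58 bases and a glucocorticoid half-site at 128 bases, and Mogat1 held no match. Over 32851 RefSeq windows of the same length, TATAAA was found in 12.4%, CCAAT in 33.8%, CACGTG in 6.02%, TGACGT in 6.47%, AGAACA in 16.1% and AGGTCA in 14.0%. A match describes the letters, and binding was not measured.

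At 5 weeks, corticosterone was accompanied by changes in both directions along the pathway. Of the 10 genes, 4 rose (Dgat2, Mogat2, Gpd1 and Agpat2), 4 fell (Gpam, Pck1, Lpin1 and Mogat1) and 2 did not pass the test (Dgat1 and Gyk). Calls were made at an adjusted p below 0.05 from limma over 15601 genes, and fold changes are differences of log2(FPKM + 1), in which low genes change by less than their ratio. Among all genes tested at 5 weeks, 22.3% rose and 21.5% fell. The CORT and VEH libraries did not overlap for 7 of the 10 genes, against 28.9% of all genes tested. Mogat2 entered the genes tested mainly through CORT libraries, in which it was high, so its part in these counts is no support. With a stricter filter of at least 1 FPKM in at least 10 libraries, which removes Mogat2, 3 members rose and 4 fell. The median log2 fold change of the 10 genes was 0.20, beside 0.01 for all genes tested. In whole tissue, a change in the number of cells of a type and a change in RNA per cell cannot be told apart: at 5 weeks all 4 endothelial markers tested fell, from a summed 115.5 to 207.8 FPKM in VEH to 53.1 to 78.9 FPKM in CORT. Of 5 macrophage markers 2 rose and 1 fell, and 4 skeletal muscle markers, mostly Acta1, summed to 35.2 to 66.1 FPKM in CORT and 8.74 to 34.4 FPKM in VEH. Of the 8 adipocyte markers, 1 rose and 2 fell. The part of such shifts in the values below was not tested.

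At 15 weeks, 3 of the 10 genes were higher in CORT (Dgat2, Gpd1 and Mogat2), 3 were lower (Gpam, Dgat1 and Lpin1) and 4 did not pass. Far fewer genes differed at that time, 3.83% of those tested being higher and 6.8% lower. The groups did not overlap for 5 of the 10 genes (Dgat2, Gpd1, Gpam, Mogat1 and Mogat2), against 8.07% of all genes tested. Here too Mogat2 is counted although it entered the genes tested mainly through CORT libraries. Under the stricter filter, which removes it, 2 members were higher and 4 lower, Mogat1 being added. The median log2 fold change was -0.12 for the 10 genes and 0.00 for all genes tested. At 15 weeks the endothelial markers summed to 114.8 to 141.1 FPKM in CORT and 97.2 to 198.7 FPKM in VEH. Of the 8 adipocyte markers 1 was higher and 1 lower. The 11 liver markers summed to 19.1 to 30.6 FPKM in CORT and 39.8 to 61.3 FPKM in VEH, with 1 called lower. Their part in the values at 15 weeks was not tested. Scaling the libraries to equal summed FPKM shifted the median of all genes at 15 weeks to 0.13, turned the split of calls from 598 higher and 1061 lower into 1364 higher and 423 lower, and left 3 members higher and 1 lower. The calls of Dgat2 and Gpd1 at 15 weeks held under every alternative run, and that of Gpam under all but the one without the 7 libraries (-1.26 in place of -1.25, adjusted p = 0.0562, with fewer libraries). The calls of Dgat1, Lpin1 and Mogat2 did not: without any one of replicates 1 and 5 of CORT and 2 and 3 of VEH, 3 members were called instead of 6, and without the 7 libraries 2 were. Leaving out the 7 libraries also makes the groups smaller, and the calls over all genes at 15 weeks went from 1659 to 149. In that run Dgat1, Lpin1 and Mogat2 were at -0.70, -0.58 and 0.32, beside -0.74, -0.70 and 0.63 in the main fit. Whether the smaller groups or the transcripts of other organs account for the lost calls was not tested.

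**Figure D1:**
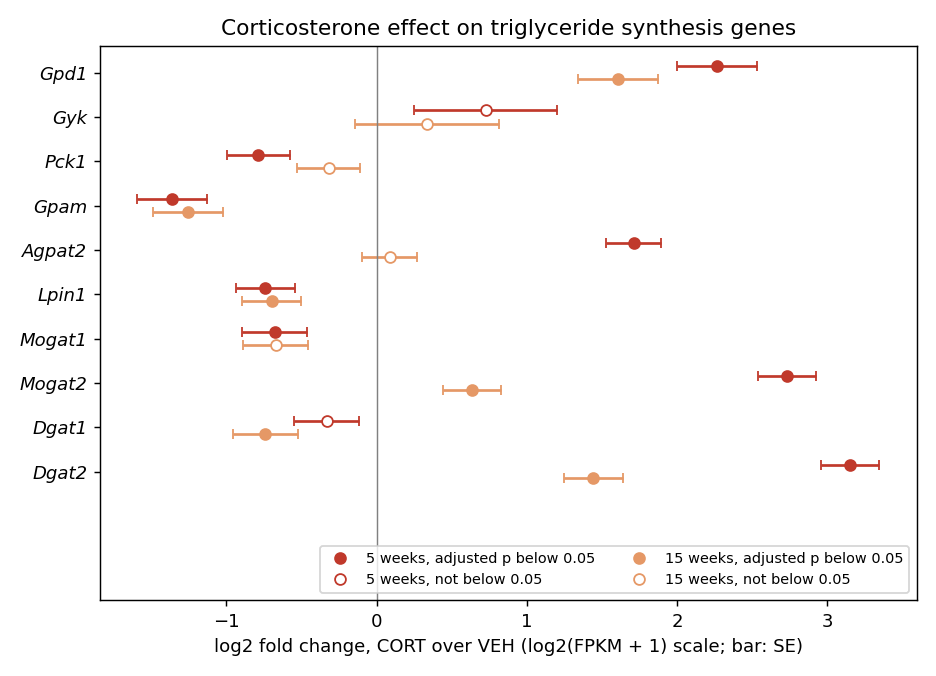
Log2 fold change of CORT over VEH at 5 weeks (red) and 15 weeks (orange) for the 10 genes, in pathway order, on the log2(FPKM + 1) scale. Points are limma estimates, bars are standard errors, and filled points passed at an adjusted p below 0.05; Dgat2, Mogat2, Gpd1 and Agpat2 lie farthest to the right at 5 weeks, and Agpat2 lies near 0 at 15 weeks.

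The change of the corticosterone effect between the weeks was tested directly as the effect at 15 weeks minus that at 5 weeks. It was lower at 15 weeks for 3 of the 10 genes (Agpat2, Dgat2 and Mogat2), against 10.1% of all genes tested, and it did not pass for the other 7. Mogat2 was among the genes tested mainly through CORT libraries, and the stricter filter that removes it left Agpat2 and Dgat2. With libraries scaled to equal summed FPKM the calls over all genes turned from 1025 higher and 1575 lower to 2067 higher and 668 lower, with a median of 0.19, and the same count of 3 members was lower. None of the genes that fell at 5 weeks had an effect that passed this test. Between the vehicle groups of the 2 weeks, limma called 0 of the 10 genes, against 0.0128% of all genes tested in either direction. Without adjustment 1 gene, Gpd1, was below the threshold of 0.05 there, with a log2 difference of -0.60, and voom on the recovered reads called 0.

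The first step for an adipocyte is a supply of glycerol 3-phosphate. Gpd1, the cytosolic glycerol 3-phosphate dehydrogenase that makes it from a glycolytic intermediate, was higher in CORT at both weeks. At 5 weeks it measured 323.0, 392.9, 279.7, 254.9 and 341.3 FPKM in CORT replicates 1 to 5 and 68.6, 96.2, 113.4, 38.7 and 38.8 FPKM in VEH. The lowest CORT library stood above the highest VEH library. The log2 fold change was 2.27 (SE 0.27, adjusted p = 3.66e-06), a 4.48-fold ratio of mean FPKM. At 15 weeks Gpd1 measured 154.2, 119.0, 192.4, 102.0 and 108.3 FPKM in CORT and 59.2, 39.7, 47.8, 38.1 and 31.9 FPKM in VEH. These groups did not overlap either, and the log2 fold change was 1.61 (SE 0.27, adjusted p = 0.00214). The mean of CORT at 15 weeks lay between that of CORT at 5 weeks and those of both VEH groups. Its replicates 4 and 5 were, however, below the highest VEH library of 5 weeks. The effect at 15 weeks did not differ from that at 5 weeks by the test (-0.66, SE 0.38, adjusted p = 0.243).

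Pck1 encodes the cytosolic PEP carboxykinase, which starts glyceroneogenesis in fat. It was the most abundant of the 10 genes in every group, and it fell at 5 weeks. It measured 744.7, 1018, 1311, 729.4 and 1165 FPKM in CORT at 5 weeks, and 1741, 1730, 1443, 1764 and 1689 FPKM in VEH. The highest CORT library was below the lowest VEH library, replicate 3, which stood apart from the other 4 of its group. The log2 fold change was -0.79 (SE 0.21, adjusted p = 0.00512). At 15 weeks Pck1 measured 1399, 1770, 1875, 1200 and 1817 FPKM in CORT and 2210, 2129, 2372, 2324 and 1179 FPKM in VEH. Replicate 5 of VEH, a library with testis and epididymis transcripts, was the lowest of the 10 and made the groups overlap. The difference of -0.32 (SE 0.21) did not pass (adjusted p = 0.366), and without replicate 5 of VEH it was -0.51 (adjusted p = 0.0853). Without all 7 libraries with transcripts of other organs it was also -0.51 (adjusted p = 0.253).

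Gyk encodes glycerol kinase, which phosphorylates free glycerol and is known for its low activity in white fat. RefSeq names the gene Gk and places it on chromosome X. It ranged from 1.79 to 14.71 FPKM over the 20 libraries, with no call at either week. At 5 weeks it measured 9.49, 9.94, 14.7, 6.28 and 2.95 FPKM in CORT and 2.31, 4.49, 4.52, 10.8 and 2.57 FPKM in VEH. The groups overlapped, and the log2 difference of 0.72 (SE 0.48) had an adjusted p of 0.236. At 15 weeks 1 library of each group was far above the rest, replicate 2 of CORT at 13.2 FPKM and replicate 5 of VEH at 9.66 FPKM, while the other 8 lay between 1.79 and 5.13 FPKM. In the 5 libraries highest in Cdh16, at 7.15 to 15.2 FPKM, the gene that led the kidney list of 5 markers, Gyk was 5.13 to 14.7 FPKM. Another defining kidney marker, Umod, was no higher than 1.19 FPKM, and Slc34a1 no higher than 0.332 FPKM. Gyk was 9.94 FPKM in the library with liver transcripts. In the 3 libraries with epididymis transcripts it was 6.28 (CORT at 5 weeks), 4.52 (VEH at 5 weeks) and 9.66 FPKM (VEH at 15 weeks). Over the 4 libraries with testis transcripts it ranged from 1.81 to 14.7 FPKM. The part of these tissues in the Gyk values was not tested.

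**Figure D2:**
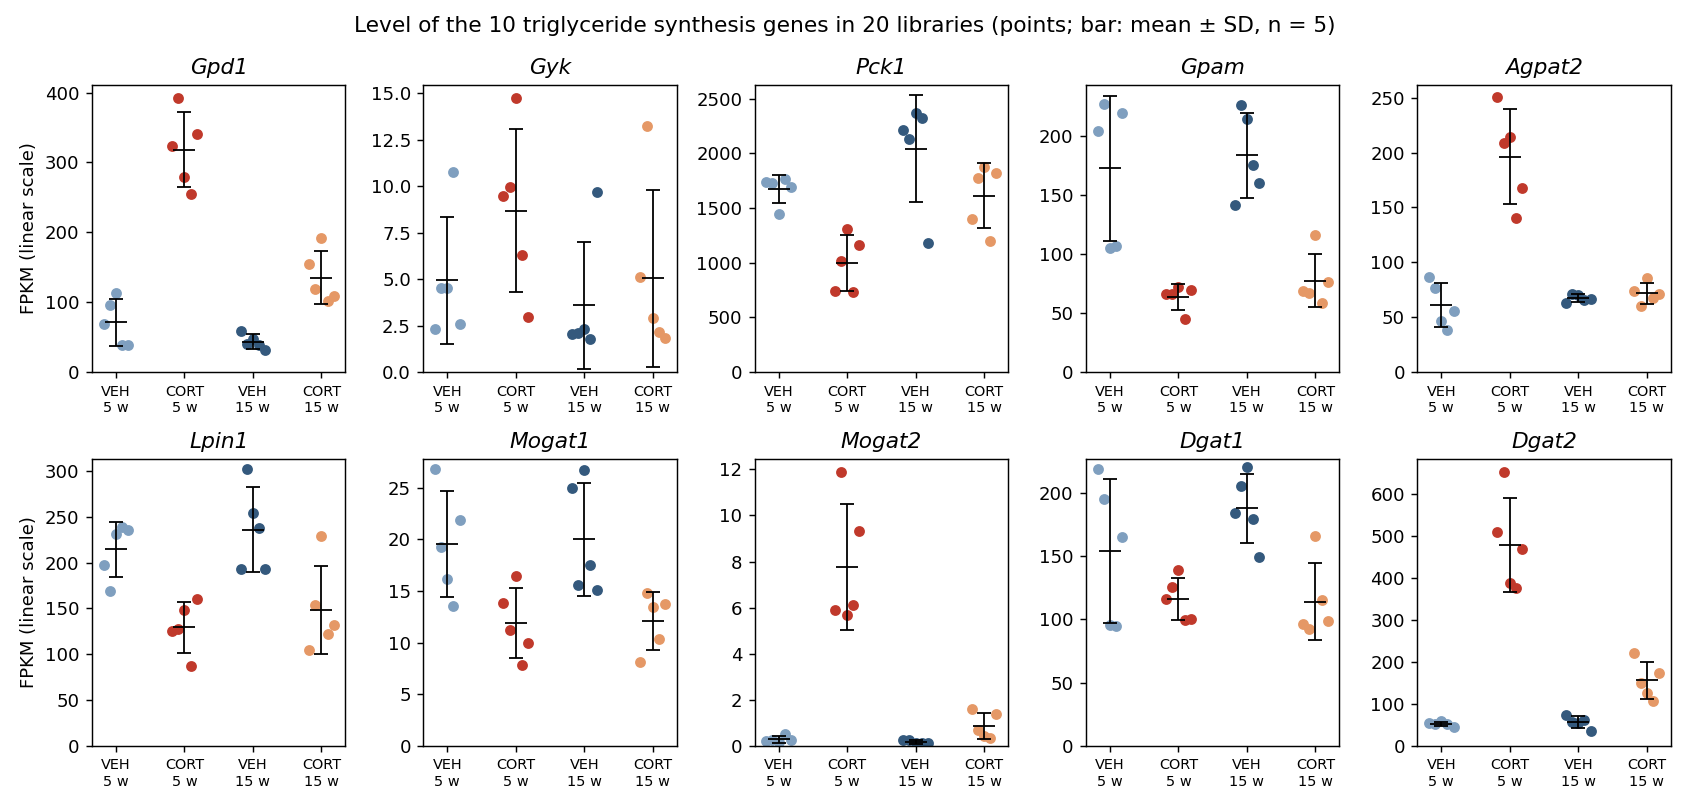
FPKM (linear axis, from 0, one scale per gene) of the 10 genes in each of the 20 libraries; points are libraries and bars are the mean ± SD of 5. The CORT libraries at 5 weeks lie above all VEH libraries of that week for Gpd1, Agpat2, Mogat2 and Dgat2 and below them for Gpam, Lpin1 and Pck1.

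Gpam encodes the mitochondrial glycerol 3-phosphate acyltransferase, which attaches the first acyl chain. It was lower in CORT at both weeks by like amounts. At 5 weeks it measured 65.9, 65.9, 71.6, 44.8 and 69.6 FPKM in CORT and 203.8, 226.9, 105.1, 107.1 and 219.6 FPKM in VEH. The VEH libraries fell into a higher set of 3 and a lower set of 2, replicates 3 and 4, and even the lower ones were above all CORT libraries. The log2 fold change was -1.36 (SE 0.23, adjusted p = 0.000135). At 15 weeks Gpam measured 68.4, 67.1, 116.0, 58.7 and 76.5 FPKM in CORT and 141.1, 226.1, 214.2, 175.3 and 160.5 FPKM in VEH. The groups again did not overlap, and the log2 fold change was -1.25 (SE 0.23, adjusted p = 0.00397). The effects at the 2 weeks differed by 0.11 (SE 0.33, adjusted p = 0.859).

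Agpat2 encodes the acyltransferase that attaches the second chain, and loss of the human enzyme is a cause of congenital generalized lipodystrophy. It was raised at 5 weeks, with no difference passing at 15 weeks. CORT at 5 weeks measured 250.9, 208.3, 214.5, 140.5 and 167.5 FPKM, and VEH 86.3, 76.3, 46.5, 38.6 and 55.9 FPKM. All 5 CORT libraries exceeded all 5 VEH libraries, with a log2 fold change of 1.71 (SE 0.18, adjusted p = 1.33e-06). At 15 weeks CORT measured 74.1, 60.4, 85.9, 67.8 and 70.7 FPKM and VEH 62.8, 71.1, 70.4, 65.4 and 66.3 FPKM. Here the groups overlapped, at 71.8 ± 9.35 FPKM (SD, n = 5) in CORT and 67.2 ± 3.50 FPKM (SD, n = 5) in VEH, and the log2 difference was 0.09 (SE 0.18, adjusted p = 0.817). The fall of the effect between the weeks, -1.62 (SE 0.26), passed the test (adjusted p = 0.000736).

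Lpin1 encodes lipin 1, the phosphatidate phosphatase that yields diacylglycerol. It was lower in CORT by a similar amount at both weeks. At 5 weeks it measured 125.9, 127.1, 148.5, 86.9 and 159.8 FPKM in CORT and 197.8, 169.6, 231.7, 238.5 and 235.5 FPKM in VEH. The groups did not overlap, and the log2 fold change was -0.74 (SE 0.19, adjusted p = 0.0047). At 15 weeks it measured 105.1, 153.7, 228.9, 121.8 and 132.3 FPKM in CORT and 192.8, 302.9, 254.5, 238.3 and 193.0 FPKM in VEH. Replicate 3 of CORT lay within the VEH range, and the log2 fold change was -0.70 (SE 0.19, adjusted p = 0.0279). That call was lost without any one of replicates 1, 4 and 5 of CORT or 2 and 3 of VEH (-0.59 to -0.67, adjusted p = 0.0597 to 0.0951). Without the 7 libraries that hold transcripts of other organs the value was -0.55 (adjusted p = 0.117) at 5 weeks and -0.58 (adjusted p = 0.184) at 15 weeks. In the authors' deposited comparison the log2 fold change of Lpin1 at 15 weeks was -0.67, with an adjusted p of 0.0204.

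The side route through monoacylglycerol is served by Mogat1 and Mogat2, acyltransferases of which the latter is best known from the intestine. The pair moved in opposite directions at 5 weeks. Mogat1 measured 13.9, 11.2, 16.5, 7.82 and 9.99 FPKM in CORT and 26.9, 19.3, 16.1, 13.6 and 21.9 FPKM in VEH. The groups overlapped through replicates 3 and 4 of VEH, and the log2 fold change was -0.68 (SE 0.21, adjusted p = 0.015). Without the 7 libraries it was -0.71 (adjusted p = 0.066). At 15 weeks Mogat1 measured 8.13, 14.8, 13.5, 10.3 and 13.8 FPKM in CORT and 25.0, 15.6, 26.7, 17.5 and 15.1 FPKM in VEH. These groups did not overlap, by a small margin between 14.8 and 15.1 FPKM, but the log2 difference of -0.67 (SE 0.21) had an adjusted p of 0.0505 and was not called. In the authors' deposited table the log2 fold change of Mogat1 at 15 weeks was -0.72, with an adjusted p of 0.0200.

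Mogat2 was near the floor of measurement in VEH and was raised in CORT. At 5 weeks it measured 5.88, 11.9, 5.66, 6.09 and 9.34 FPKM in CORT and 0.189, 0.260, 0.185, 0.520 and 0.238 FPKM in VEH. Those values rest on 375 to 777 reads per library in CORT and 9 to 30 in VEH, and the groups were far apart. The ratio of mean FPKM was 27.9, while the log2 fold change on the log2(FPKM + 1) scale was 2.73 (SE 0.19, adjusted p = 1.51e-08). At 15 weeks Mogat2 measured 1.59, 0.679, 0.408, 0.345 and 1.36 FPKM in CORT, from 20 to 80 reads, and 0.231, 0.269, 0.128, 0.103 and 0.115 FPKM in VEH, from 5 to 12 reads. The groups did not overlap, the ratio of means was 5.17, and the log2 fold change of 0.63 (SE 0.19) had an adjusted p of 0.0425. The call at 15 weeks was lost without any one of replicates 1, 2 and 5 of CORT or any one VEH library (0.50 to 0.66, adjusted p = 0.0569 to 0.138), and without the 7 libraries the value was 0.32 (adjusted p = 0.294). The authors' deposited table gives Mogat2 a log2 fold change of 4.79 at 5 weeks and 2.38 at 15 weeks, the latter with an adjusted p of 0.00124. From 5 to 15 weeks the effect fell by 2.10 on the log2(FPKM + 1) scale (SE 0.27, adjusted p = 0.000159).

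Mogat2 passed the filter on low values (5 or more libraries at 0.5 FPKM or higher) through the 5 CORT libraries at 5 weeks, 3 at 15 weeks and 1 VEH library, so its presence among the genes tested depends on the group in which it is high. The other 9 genes were at or above that level in all 20 libraries. In the library with liver transcripts, replicate 2 of CORT at 5 weeks, Mogat2 and Dgat2 were at their highest, and the intestinal gene Apoa4, also made by liver, was at 65.5 FPKM. Without that library the log2 fold changes at 5 weeks were 2.58 for Mogat2 (adjusted p = 4.26e-08) and 3.03 for Dgat2 (adjusted p = 2.2e-08).

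The last step, from diacylglycerol to triglyceride, is carried out by Dgat1 and Dgat2, unrelated proteins with overlapping activity. On the log2(FPKM + 1) scale Dgat2 had the largest change of the 10 genes at 5 weeks (by ratio of means Mogat2 had), and Dgat1 had none that passed. Dgat2 measured 510.9, 654.3, 387.4, 376.5 and 469.4 FPKM in CORT at 5 weeks, and 54.6, 51.6, 59.1, 51.6 and 44.4 FPKM in VEH. The lowest CORT library was several times the highest VEH library, the ratio of means was 9.18, and the log2 fold change was 3.15 (SE 0.20, adjusted p = 3.55e-09). At 15 weeks it measured 222.6, 149.3, 127.1, 107.5 and 172.9 FPKM in CORT and 73.6, 56.3, 54.4, 61.7 and 36.1 FPKM in VEH. All CORT libraries at 15 weeks lay above all VEH libraries and below all CORT libraries at 5 weeks. The log2 fold change was 1.44 (SE 0.20, adjusted p = 0.000608), and from 5 to 15 weeks the effect fell by 1.71 (SE 0.28, adjusted p = 0.000829).

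Dgat1 measured 115.8, 125.3, 138.7, 99.7 and 100.3 FPKM in CORT at 5 weeks and 219.0, 195.4, 95.5, 94.8 and 164.8 FPKM in VEH. Replicates 3 and 4 of VEH were below all CORT libraries and the other 3 above them all, and the log2 difference of -0.33 (SE 0.22) did not pass (adjusted p = 0.233). Under quantile normalization it was -0.61 and passed (adjusted p = 0.0274). At 15 weeks Dgat1 measured 96.5, 92.5, 166.1, 115.5 and 98.7 FPKM in CORT and 183.8, 205.8, 220.3, 179.7 and 149.6 FPKM in VEH. Only replicate 3 of CORT reached into the VEH range, and the log2 fold change was -0.74 (SE 0.22, adjusted p = 0.0357). That call was lost without any one of replicates 1, 2, 4 and 5 of CORT or 1 to 4 of VEH (-0.67 to -0.75, adjusted p = 0.0514 to 0.099). Without the 7 libraries that hold transcripts of other organs the value was -0.70 (adjusted p = 0.183). The authors' deposited table gives Dgat1 a log2 fold change of -0.72 at 15 weeks, with an adjusted p of 0.00157. The effects at the 2 weeks differed by -0.41 (adjusted p = 0.382).

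Dgat2 and Mogat2 are neighbours on chromosome 7, with 0 genes between them in RefSeq GRCm38.p6, and belong to 1 protein family. Mogat2 reached 1.15% to 1.99% of the Dgat2 level in CORT at 5 weeks and 0.321% to 0.785% in CORT at 15 weeks. In VEH it was 0.314% to 1.01% at 5 weeks and 0.167% to 0.478% at 15 weeks. The share in CORT at 5 weeks was above that in every other library. After the 4 group means were removed, the log2(FPKM + 1) values of the pair had a Pearson r of 0.69 over 20 libraries, a description of libraries that share depth and tissue makeup. Mogat2 was only 0.103 to 0.520 FPKM in VEH, so its spread on this scale comes mostly from the CORT libraries. Whether reads that run past the end of one gene were counted in the other was not tested.

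**Figure D3:**
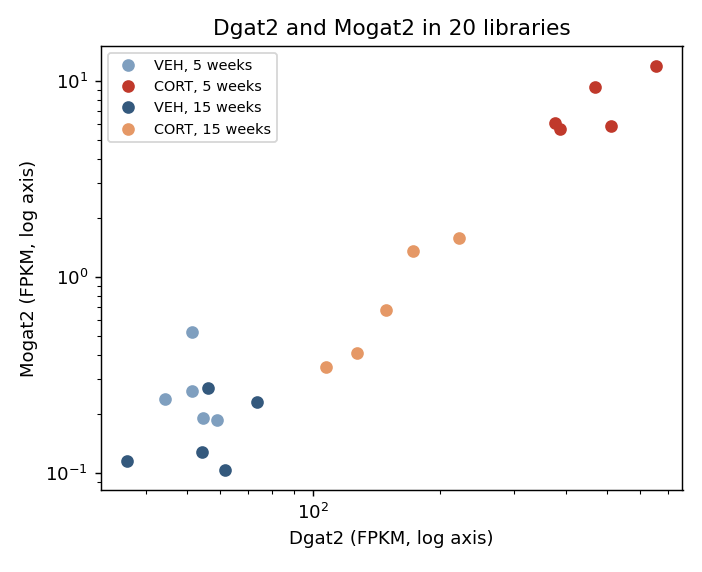
Mogat2 against Dgat2 in the 20 libraries, both in FPKM on log axes, 1 point per library coloured by group. The CORT libraries at 5 weeks lie at the upper right. Those at 15 weeks lie between them and VEH on the Dgat2 axis, while on the Mogat2 axis some overlap VEH at 5 weeks. Within VEH the points form a cloud at 36.1 to 73.6 FPKM of Dgat2.

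Because several steps are served by more than 1 gene, the balance between them was compared as the log2 ratio of FPKM values within each library, by a two-sided exact permutation test of 5 against 5 libraries. The smallest p that this test can give is 0.00794, and p-values were adjusted over the 10 ratios tested (5 steps, 2 weeks). The ratio of Dgat2 to Dgat1 was higher in CORT by 3.51 at 5 weeks and by 2.20 at 15 weeks (exact permutation, adjusted p = 0.0132 for both). Dgat2 thus made up 80.1% ± 4.02 (SD, n = 5) of the summed FPKM of the pair in CORT at 5 weeks and 27.1% ± 8.86 (SD, n = 5) in VEH. At 15 weeks its share was 57.3% ± 11.1 (SD, n = 5) in CORT and 23.0% ± 3.97 (SD, n = 5) in VEH. The summed FPKM of the pair averaged 596 and 206 at 5 weeks in CORT and VEH, and 270 and 244 at 15 weeks. At 15 weeks the summed level ranged from 222.9 to 319.1 FPKM in CORT and from 185.7 to 274.6 FPKM in VEH, so the sums overlapped while the shares did not.

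At the first acylation, Gpam fell relative to the other GPAT genes (Gpat2, Agpat6 and Agpat9, the last pair now named Gpat4 and Gpat3) by 1.23 at 5 weeks and by 1.01 at 15 weeks on the log2 scale (exact permutation, adjusted p = 0.0132 for both). Its share of the step went from 58.9% in VEH to 38.1% in CORT at 5 weeks, and was 57.9% and 40.7% at 15 weeks. Agpat2 rose relative to Agpat1, Agpat3, Agpat4 and Agpat5 by 1.26 at 5 weeks (exact permutation, adjusted p = 0.0132), from 49.1% to 69.7% of their sum. At 15 weeks its ratio differed by 0.06 (exact permutation, adjusted p = 0.698), with shares of 53.6% in CORT and 52.6% in VEH.

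Lpin1 was by far the most abundant lipin gene in all groups, at 92.2% or more of the 3 lipin genes in every library. Its ratio to Lpin2 and Lpin3 was lower in CORT by 1.19 at 5 weeks (exact permutation, adjusted p = 0.0132) and by 0.85 at 15 weeks (exact permutation, adjusted p = 0.0454). The ratio of Gpd1 to Gyk was higher in CORT by 1.44 at 5 weeks (exact permutation, adjusted p = 0.0496) and by 1.21 at 15 weeks (exact permutation, adjusted p = 0.141). At 15 weeks the latter was 1.69 and passed without replicate 2 of CORT (exact permutation, adjusted p = 0.0227), and was 0.68 without replicate 5 of VEH, the libraries highest in Gyk. The call for the lipin ratio at 15 weeks and that for Gpd1 to Gyk at 5 weeks were each lost when any 1 of 9 of the 10 libraries was left out, the exceptions being replicate 3 of CORT in each case. Without replicate 4 of VEH at 5 weeks the Gpd1 to Gyk difference was 0.92, and without replicate 1 of CORT at 15 weeks the lipin difference was -0.74.

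**Figure D4:**
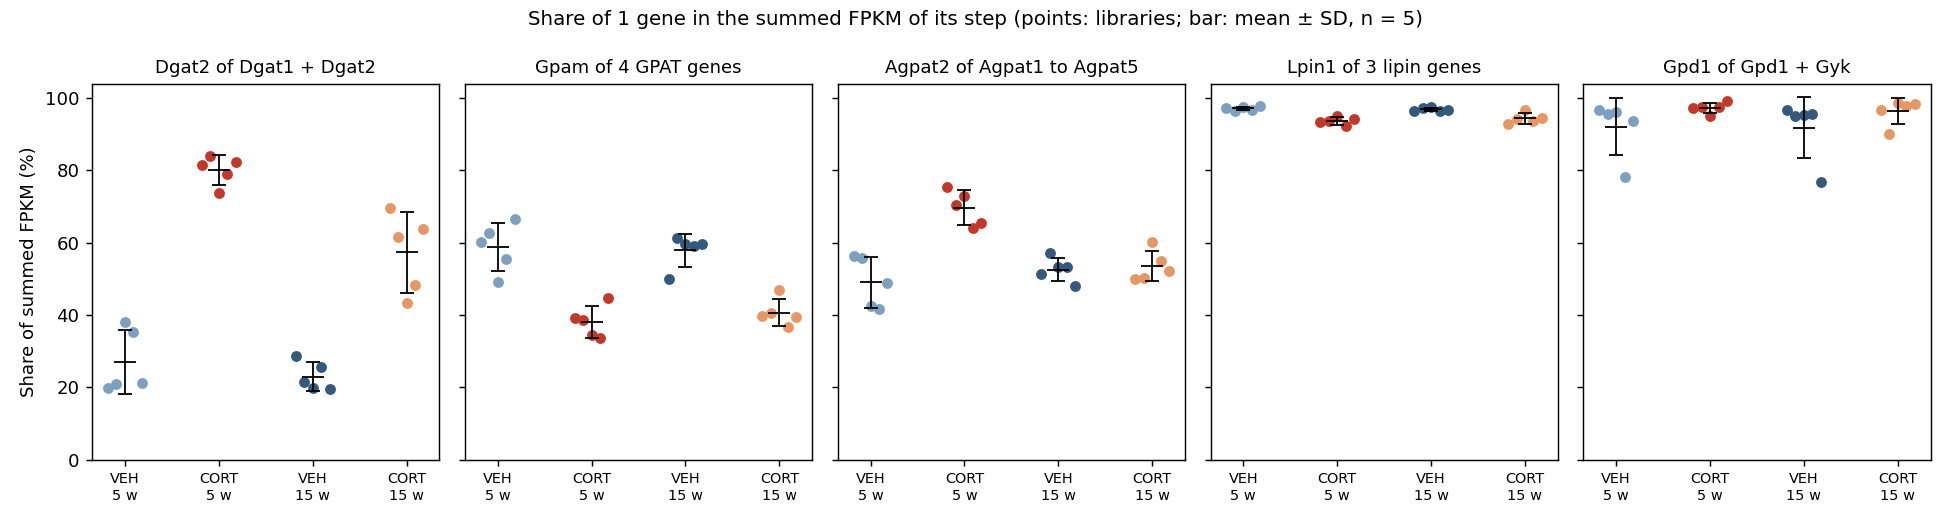
Share of 1 gene in the summed FPKM of its step, in percent on axes from 0, for Dgat2, Gpam, Agpat2, Lpin1 and Gpd1; points are libraries and bars are the mean ± SD of 5. The Dgat2 share of CORT stands above that of VEH at both weeks and the Gpam share below it, while the Agpat2 share differs at 5 weeks and overlaps at 15 weeks.

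The wider pathway was followed in 35 other listed genes, all in the table, of which 29 were tested; Gk2, Aqp3, Awat1, Awat2, Dgat2l6 and Fitm1 were too low. At 5 weeks 8 rose and 5 fell, with a median log2 fold change of 0.13, and the groups did not overlap for 7. Over all genes tested, 22.3% rose, 21.5% fell and 28.9% did not overlap, so these counts lie near the background. The 5 other genes listed under the second acylation, Agpat1, Agpat3, Agpat4, Agpat5 and Lclat1, all rose, as Agpat2 did. Lclat1 was not part of the ratio for this step. Agpat4 had the largest change among them, from 4.01 ± 1.29 FPKM (SD, n = 5) in VEH to 10.4 ± 1.91 FPKM (SD, n = 5) in CORT, a log2 fold change of 1.22 (SE 0.17, adjusted p = 1.62e-05). The other 4 rose by 0.26 (Agpat3) to 0.51 (Agpat1). The remaining genes that rose were Gpd1l, Lpin2 and Soat1. Those that fell were Agpat6, Fitm2, Gk5, Pck2 (the mitochondrial counterpart of Pck1) and Tmem159 (now Ldaf1), by 0.30 to 0.66 on the log2 scale.

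At 15 weeks limma called 0 of the 29 higher and 4 lower (Acsl3, Acsl4, Fitm2 and Ppap2a, now Plpp1), with a median log2 fold change of -0.07, where 3.83% of all genes tested were higher and 6.8% lower. At an unadjusted p below 0.05, 2 were higher and 8 lower, and voom on the recovered reads called 0 higher and 4 lower. None of the 5 other genes listed under the second acylation was called at 15 weeks, 1 having an unadjusted p below 0.05 and voom calling 0. For Agpat4 the effect fell between the weeks by 1.02 (SE 0.24, adjusted p = 0.00816), and those of Acsl3, Agpat5 and Lclat1 also passed that test as lower, 4 of 29 against 10.1% of all genes tested. Fitm2, which encodes an endoplasmic reticulum protein needed to form lipid droplets, was the 1 gene of the 29 called at both weeks, with log2 fold changes of -0.66 (adjusted p = 0.000906) and -0.63 (adjusted p = 0.00949).

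**Figure D5:**
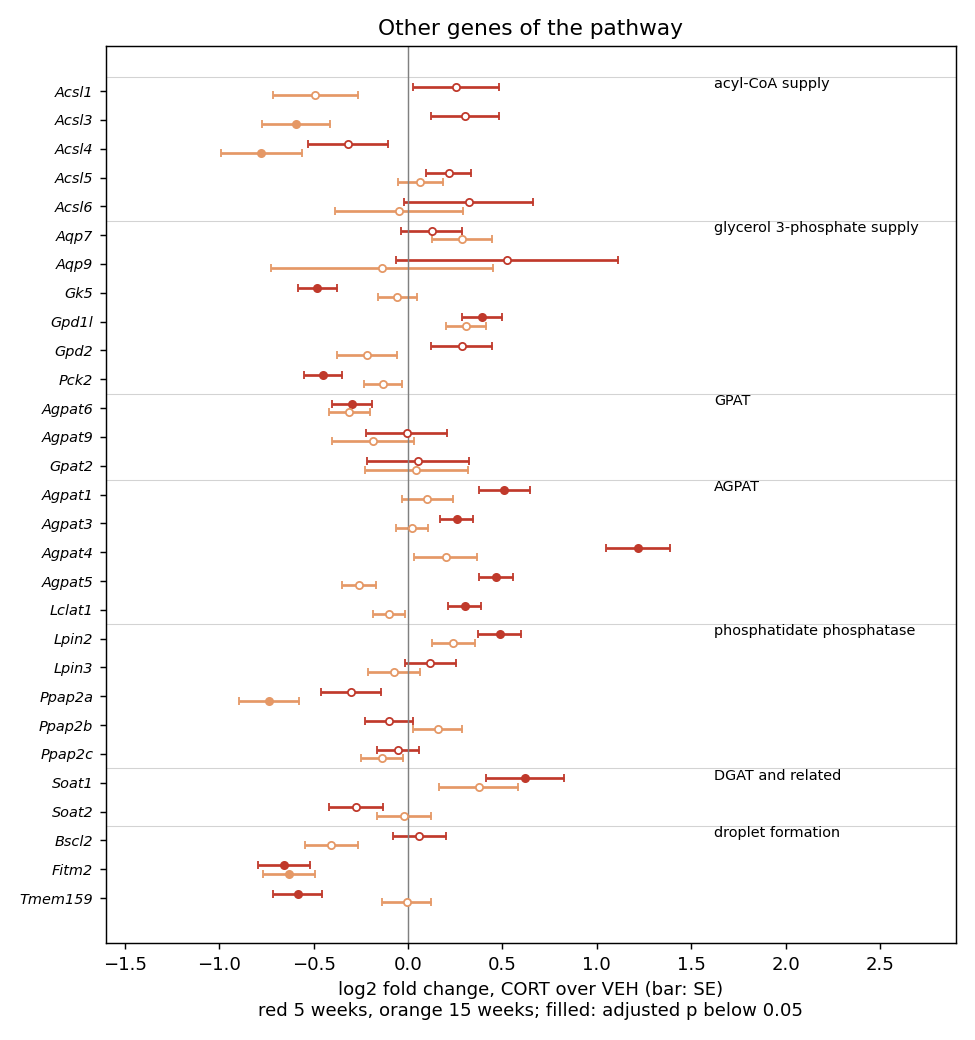
Log2 fold change of CORT over VEH at 5 weeks (red) and 15 weeks (orange) for the 29 other pathway genes tested, grouped by step; bars are standard errors and filled points passed at an adjusted p below 0.05. The 5 genes of the AGPAT group are filled and right of 0 at 5 weeks, with Agpat4 at 1.22, and open at 15 weeks.

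Within groups, the 10 genes also varied together in part. With the 4 group means removed, Dgat1 and Gpam had a Pearson r of 0.84, Dgat1 and Agpat2 of 0.82, and Agpat2 and Gpam of 0.76 over 20 libraries. In VEH at 5 weeks, replicates 3 and 4 were the lowest for each of these 3 genes, and in CORT at 15 weeks replicate 3 was the highest for each. With the same 3 genes Dgat2 had r from -0.10 to 0.10 and Gpd1 from 0.16 to 0.36. The lowest correlations were those of Gyk, with -0.37 to Dgat1 and -0.30 to Gpam.

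Over all genes with a mean of at least 1 FPKM, the nearest to Gpam in the same measure were Afg3l2 (0.92), Crat (0.92) and Pcx (0.92), and to Dgat1 Uck1 (0.91), Ppa1 (0.91) and Cpt2 (0.89). Nearest to Agpat2 were Aldh3b2 (0.85), Pex11a (0.83) and Dgat1 (0.82). For Dgat2 they were Ptrf (0.89), Tenm4 (0.89) and Paqr4 (0.87). Mogat1 was nearest to B3galt2 (0.91), Retn (0.91) and Acadsb (0.89), and Lpin1 to Fam214a (0.86), Rora (0.81) and Edrf1 (0.78). Gpd1 was nearest to Epb4.1l1 (0.79), Igfals (0.77) and Sh3glb2 (0.76). The values for Gyk, with Cdkl4 (0.95), Ddah1 (0.93) and Gstm7 (0.93), were the highest among the 10 genes. These are descriptions over libraries that share depth and tissue makeup.

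In order of level, Pck1 led in all 4 groups. In VEH at both weeks Lpin1 was next by mean, and Gpam and Dgat1 stood close together after it (172.5 and 153.9 FPKM at 5 weeks, 183.4 and 187.8 FPKM at 15 weeks), the ranges of all 3 overlapping within 94.8 to 238.5 FPKM at 5 weeks. Below them by mean came Gpd1, Agpat2 and Dgat2 at 5 weeks, with overlapping ranges, and Agpat2, Dgat2 and Gpd1 at 15 weeks, where Agpat2 lay wholly above Gpd1. In CORT at 5 weeks Dgat2 (mean 479.7 FPKM) and Gpd1 (318.4 FPKM) came next after Pck1, with overlapping ranges, then Agpat2 (196.4 FPKM), Lpin1 (129.7 FPKM), Dgat1 (115.9 FPKM) and Gpam (63.6 FPKM). In CORT at 15 weeks Dgat2, Lpin1, Gpd1 and Dgat1 lay at means of 113.9 to 155.9 FPKM with overlapping ranges. Mogat1, Gyk and Mogat2 were the lowest 3 in each group.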

How the data were processed

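The 10 genes and all lists were chosen with earlier results of these data known. Per the file headers, the authors' expression table holds FPKM values, with columns assigned through the library titles. The submitters' processing notes name TopHat, Bowtie, DESeq2, DiffBind, mm9 and dm3, with no role per file, and strand and annotation are not given in the sources used here. The authors' deposited comparison tables hold mean normalized signal, log2 fold changes, p-values and adjusted p-values; they serve for side values only.

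Reads were recovered from the FPKM steps: 100% of 382438 values above 0 came out whole (tolerance 0.05), and the FPKM carry a median-ratio scaling. Mogat2 in VEH rests on 5 to 30 reads, which limits its precision. limma 3.58.1 (R 4.3.3, trend) was fitted to log2(FPKM + 1) with 4 group means over 20 libraries, for the 15601 genes at 0.5 FPKM or higher in 5 or more libraries (of 22416 above 0), two-sided, with Benjamini-Hochberg adjustment. The step was also run on simulated reads with few genes changed and 1 fixed dispersion, unlike these data, which checks the code and not the calls. Ratios used a pseudocount of 0.1 and exact permutation in scipy 1.17.1 (252 assignments). All 10 genes are named whatever they show; of the other pathway genes, those called with an absolute log2 fold change of at least 1 were to be named with values, and others are named as counts of the lists require, chosen after their values were seen. Replicate numbers recur in each group, and the deviations of same-numbered libraries correlated with mixed signs (r from -0.494 to 0.407). Between CORT and VEH at 15 weeks 3 of 5 such pairs were over 0.1. No block was used in the main fit. Alternatives were other pseudocounts, filters and scalings, voom on the recovered reads, a replicate block, each library left out, and 7 libraries left out. The 26 ChIP samples were not analysed here, since their sites carry mm9 coordinates and no gene names. The genes nearest to Pck1 and Mogat2 across libraries are not reported here.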

Additional observations from a re-analysis of the deposited data

Results flagged for a closer look

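In 6 of the 40 groups of 5 libraries checked (10 genes, 4 groups), 1 library stood apart from the others by Dixon's criterion (0.71 for 5 values), which chance alone meets in about 1 of 20 groups. Gpam was lowest in CORT at 5 weeks replicate 4, at 44.79 FPKM, a library with epididymis transcripts. Pck1 was lowest in VEH at 5 weeks replicate 3, at 1443 FPKM, and in VEH at 15 weeks replicate 5, at 1179 FPKM, and both hold epididymis transcripts. Gyk was highest in that last library, at 9.656 FPKM, and in VEH at 5 weeks replicate 4, at 10.75 FPKM, where the kidney-list gene Cdh16 was at 11.97 FPKM. Mogat2 was highest in VEH at 5 weeks replicate 4, at 0.5204 FPKM. The part of other tissues in these values was not tested.

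The corticosterone effect differed between the weeks by the test of the difference for 3 genes, each smaller at 15 weeks on the log2(FPKM + 1) scale: Dgat2 by -1.709, Agpat2 by -1.625 and Mogat2 by -2.1.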

How the results depend on the processing

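No value that passed its test changed sign under any alternative run. At 5 weeks 8 genes were called, and 6 to 9 under the alternatives, with 8 whichever library was left out. The count at 15 weeks, 6, was the least stable. It was 4 with no filter on low values, where limma no longer called Dgat1 (adjusted p = 0.0561) and Mogat2 (adjusted p = 0.0638). It was 3 under quantile normalization, 2 without the 7 libraries with transcripts of other organs, and 3 to 7 when 1 library was left out. The cause was not tested. The 3 genes whose effect differed between the weeks became 2 under the stricter filter, which removes Mogat2, and 4 under quantile normalization, which adds Pck1 (0.82, adjusted p = 0.0407).

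With a replicate block, limma called 8 genes at 5 weeks, 4 at 15 weeks, 3 for the difference and 0 between vehicle groups, the losses at 15 weeks being Dgat1 (adjusted p = 0.0541) and Mogat2 (adjusted p = 0.0514). Of the 10 ratios, 8 passed, and 6 to 8 did when 1 library was left out. The count was 0 with the replicate block and 0 without the 7 libraries, but those exact tests have too few arrangements to pass after adjustment, and the directions were kept. Gyk is limited by its few high libraries, and Mogat2 in VEH by its few reads. The alternatives planned for histone marks were not run.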
